A study of Mus musculus with 14 samples.

Results

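Malat1, Meg3, Neat1, Mir124a-1hg, Snhg11, Rian, Mirg and Miat are long noncoding RNAs, followed here through whole cerebellum and ribosome-bound RNA of Purkinje cells. They are 8 of the 24100 genes counted, listed by name, and were selected in part on the measured values of purified RNA against input, as some of the genes most depleted by ribosome purification. Their levels in purified RNA against input are therefore a description, and only comparisons that the choice did not use, those between genotypes and between sexes, are tested. The data are 14 RNA sequencing libraries of mouse cerebellum at postnatal day 21. Every mouse carried Tg(Pcp2-Egfp-L10a), in which the Pcp2 promoter, active in Purkinje cells, drives a ribosomal protein tagged with EGFP. Antibodies against GFP then pull down tagged ribosomes with the RNA they hold, a method called translating ribosome affinity purification (TRAP). The groups were input WT (4 libraries, 1 female and 3 male), input Astn2 KO (3 libraries, 2 female and 1 male), TRAP WT (3 libraries, 1 female and 2 male) and TRAP Astn2 KO (4 libraries, 2 female and 2 male). Input was 3% of the supernatant left after a spin of the homogenate at 2000 g, so it is a cleared extract of whole cerebellum and not of whole nuclei.

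Long noncoding RNAs are transcribed and often spliced like messenger RNAs but do not code for a long protein, and many stay in the nucleus, where translating ribosomes are absent. Malat1 gathers in nuclear speckles, Neat1 is the scaffold of paraspeckles, and Miat, also called Gomafu, is a nuclear RNA of neurons. Meg3, Rian and Mirg lie one after another in the imprinted Dlk1-Dio3 region and are expressed from the maternal chromosome. Rian hosts small nucleolar RNAs (snoRNAs) and microRNAs, Mirg hosts microRNAs, Snhg11 hosts snoRNAs, and Mir124a-1hg is the precursor of a copy of miR-124, a microRNA family abundant in neurons. No file measures where in the cell these RNAs were, so the word nuclear rests on background alone.

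In GRCm38, Malat1 (Entrez 72289) spans chr19:5795690-5802672 and Neat1 (66961) chr19:5824708-5845480, both on the minus strand. Meg3 (17263) spans chr12:109540996-109571729, Rian (75745) chr12:109603945-109661716 and Mirg (100040724) chr12:109734981-109749458, all on the plus strand. Mir124a-1hg (268755) spans chr14:64588115-64593961 and Snhg11 (319317) chr2:158375713-158386474 on the plus strand, and Miat (330166) chr5:112213228-112228948 on the minus strand. RefSeq classes all 8 as long noncoding RNA. Their longest GENCODE transcripts ran from 3822 to 20771 bases, against a median of 1457 for the class and 3011 for coding genes. The longest open reading frame ran from 195 bases (Malat1) to 561 bases (Meg3), against a median of 234 for the class and 1092 for coding genes, and 6 of the 8 were above the median of the class. As a part of these long transcripts it was 1.83% (Neat1) to 9.65% (Mir124a-1hg), against medians of 15.7% and 45.4%.

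The hosts are shown by 6 of the 28 mature microRNA arms that RefSeq (GRCm38.p6) places within Meg3, Rian and Mirg, all on the plus strand of chromosome 12, with the seed (bases 2 to 8) in capitals. They are chosen to show one product of Meg3, one of Rian, and the range of seeds within Mirg.
mmu-miR-770-5p (Meg3): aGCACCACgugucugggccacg
mmu-miR-370-3p (Rian): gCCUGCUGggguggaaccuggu
mmu-miR-453 (Mirg): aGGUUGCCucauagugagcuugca
mmu-miR-496a-5p (Mirg): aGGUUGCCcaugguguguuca
mmu-miR-154-3p (Mirg): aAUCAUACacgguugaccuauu
mmu-miR-410-3p (Mirg): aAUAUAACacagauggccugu
The 28 arms carried 27 different seeds. A single seed, GGUUGCC, occurred in 2 arms, miR-453 and miR-496a-5p of Mirg. The libraries do not measure mature microRNAs: the 15 microRNA genes of these arms had 151 counts in all over the 7 input libraries and 6 over the 7 TRAP libraries. Levels below are those of the host transcripts. The microRNA of Mir124a-1hg is named only.

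The first of 2 annotated starts of Meg3, the first gene of its cluster, is shown beside that of Rian, which follows it on the same strand, from 250 bases before to 50 after the annotated start (RefSeq, GRCm38.p6, plus strand). Capitals mark matches to 4 motifs searched on both strands. These were the TATA box, spelled TATAAA, the CCAAT box by its own letters, the GC box, spelled GGGCGG, and the cAMP response element, spelled TGACGTCA.
Meg3, chr12:109540746-109541045: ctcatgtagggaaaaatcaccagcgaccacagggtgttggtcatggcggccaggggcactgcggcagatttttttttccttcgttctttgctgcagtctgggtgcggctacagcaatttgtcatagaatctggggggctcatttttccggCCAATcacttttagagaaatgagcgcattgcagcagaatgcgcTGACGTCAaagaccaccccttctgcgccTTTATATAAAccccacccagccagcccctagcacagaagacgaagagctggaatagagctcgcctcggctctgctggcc
Rian, chr12:109603695-109603994: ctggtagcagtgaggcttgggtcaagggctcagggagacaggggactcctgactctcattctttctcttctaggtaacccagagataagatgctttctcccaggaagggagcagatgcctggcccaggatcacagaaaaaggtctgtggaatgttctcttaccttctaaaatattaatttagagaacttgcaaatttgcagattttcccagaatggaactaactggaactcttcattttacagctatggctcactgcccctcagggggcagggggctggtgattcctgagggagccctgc
The Meg3 window held a TATA box 25 bases upstream of the start and, overlapping it on the other strand, another 29 bases upstream, with the cAMP response element 57 bases and the CCAAT box 100 bases upstream. Of 32851 promoters of the same length, 13.6% held the TATA box, 37.4% the CCAAT box, 35.7% the GC box and 1.79% the cAMP response element. The Rian window held none of these letters and 0 CpG, against 13 CpG in the Meg3 window and a median of 7 over all promoters. The window of the other annotated start of Meg3, at chr12:109545148-109545447, held 1 CpG and no match. Miat had 25 CpG and 1 GC box, Snhg11 21 CpG and no match, Mirg 10 CpG and 1 CCAAT box, and Malat1 10 CpG and no match.

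The libraries held 18.8 to 54.2 M counts each (M, 1e6). Levels are in CPM, counts per 1e6 counts after TMM scaling over the 14 libraries. Values with ± are means with the SD over n libraries, unless SE is written. Astn2 fell in KO as labelled, from 94.4 ± 6.90 CPM (n = 4) to 0.885 ± 0.127 CPM (n = 3) in input and from 130 ± 14.8 CPM (n = 3) to 1.52 ± 0.447 CPM (n = 4) in TRAP. The 9 Purkinje markers all rose in TRAP WT over input, with a median log2 fold change of 2.81, and the 10 granule cell markers all fell, with a median of -2.09. Input KO replicate 2 stood apart in choroid plexus markers (Ttr and 5 others), whose summed level was 1183 CPM there, between 22.7 and 24.4 CPM in the other input KO libraries and between 17.1 and 412 CPM in input WT. Tests and counts by genotype and sex in input are therefore given with and without it.

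In whole cerebellum extract the 8 RNAs together held 0.423 ± 0.0552% of all counts in input WT (n = 4) and 0.375 ± 0.0889% in input KO (n = 3; 0.297% and 0.356% in its replicates other than 2), against 0.0247 ± 0.00860% in TRAP WT (n = 3) and 0.0252 ± 0.00399% in TRAP KO (n = 4). Meg3, Rian and Mirg, the maternal cluster, made up between 53.1% and 61.2% of these counts in every library. Per kilobase of annotated exon in input WT, Meg3 was highest at 90.3 ± 10.7 CPM, followed by Mir124a-1hg at 75.8 ± 9.61 and Malat1 at 71.3 ± 11.8 (n = 4). Neighbours among these 3 overlapped in their libraries. Snhg11 at 42.1 ± 3.94 and Rian at 17.4 ± 1.94 CPM per kilobase came next, and Miat (1.83 ± 0.229), Neat1 (1.29 ± 0.128) and Mirg (0.712 ± 0.0776) were lowest (n = 4). From Snhg11 down, no gene's libraries overlapped those of its neighbour in the order.

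In TRAP WT the order per kilobase was different. Snhg11 led at 13.0 ± 5.22 CPM and Rian followed at 6.21 ± 2.14 CPM per kilobase (n = 3), with overlapping libraries. Meg3, Malat1 and Mir124a-1hg, the highest in input, were at 3.65 ± 1.72, 3.06 ± 0.982 and 3.05 ± 0.342 CPM per kilobase, and also overlapped (n = 3).

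**Figure D1:**
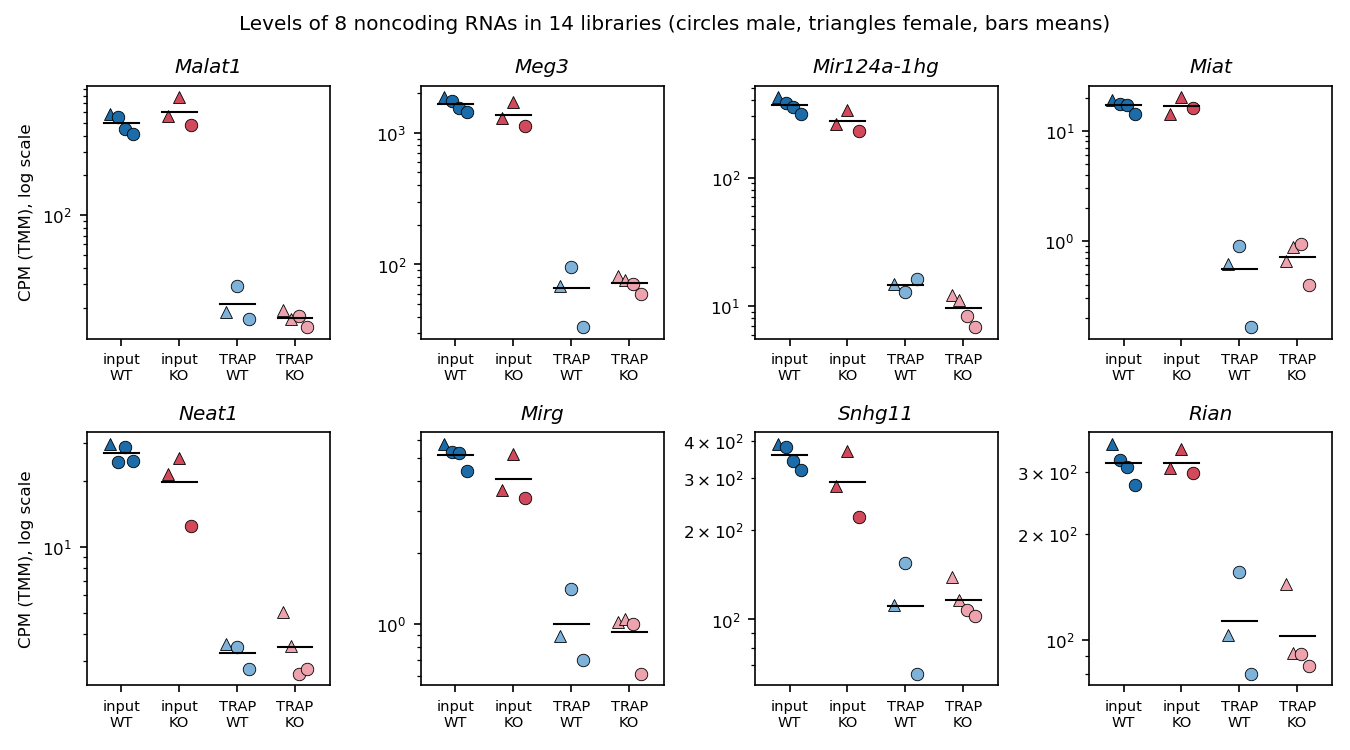
CPM (TMM scaling, log axis) of each RNA in the 14 libraries, by group, with circles for male and triangles for female libraries and a bar at each group mean; the range of the axis differs between panels. In all 8 panels every TRAP library sits below every input library, furthest for Malat1, Meg3, Mir124a-1hg and Miat.

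Every one of the 8 was lower in every TRAP library than in every input library of its genotype. Over all genes tested this held for 38.3% in WT and 40.8% in KO, and 38.5% in WT and 39.6% in KO passed as lower at an adjusted p under 0.05 in edgeR's test; since this contrast chose the members, nothing is read from their count. Among the 8 the size of the difference varied. Their median log2 fold change was -3.80 in WT and -3.28 in KO, beside -0.09 and -0.11 over all genes. The choice itself favoured this gap, so it is a description only. In bulk RNA, fewer cells of a type in a sample and less RNA per cell cannot be told apart, and TRAP differs from input both in cell type and in ribosome binding.

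Malat1 was at 581, 553, 448 and 409 CPM in input WT replicates 1 to 4 and at 562, 776 and 483 CPM in input KO. In TRAP WT it was at 18.5, 29.2 and 16.4 CPM and in TRAP KO at 19.2, 16.5, 17.1 and 14.3 CPM. The TRAP mean was 4.30% of the input mean in WT and 2.77% in KO, with log2 fold changes of -4.54 ± 0.25 and -5.12 ± 0.23 (SE).

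Meg3, the most abundant of the 8, was at 1843, 1740, 1526 and 1421 CPM in input WT and at 1283, 1693 and 1119 CPM in input KO. It was at 68.7, 95.6 and 33.6 CPM in TRAP WT and at 81.2, 76.2, 71.6 and 59.6 CPM in TRAP KO. The TRAP mean was 4.04% of input in WT and 5.29% in KO, and TRAP WT replicate 3 was the lowest of the 7 TRAP libraries.

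Mir124a-1hg was at 420, 377, 352 and 309 CPM in input WT and at 261, 333 and 232 CPM in input KO. In TRAP it was at 15.0, 12.9 and 16.1 CPM in WT and at 12.1, 11.1, 8.30 and 6.86 CPM in KO, or 4.02% and 3.49% of input. Its TRAP values in WT lay closer together than those of Meg3, and TRAP WT replicate 3, lowest for 7 of the 8 RNAs within its group, was highest for this one.

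Miat, the scarcest in TRAP, was at 19.1, 17.6, 17.2 and 14.1 CPM in input WT and at 14.1, 20.1 and 16.2 CPM in input KO. Its TRAP values of 0.612, 0.896 and 0.165 CPM in WT and 0.663, 0.876, 0.935 and 0.396 CPM in KO rested on 4 to 25 counts a library, where 3 counts were taken as the lowest level a library can show. TRAP was 3.28% of input in WT and 4.27% in KO, a log2 fold change of -5.01 ± 0.36 in WT (SE), the largest of the 8, on the fewest counts.

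These 4 formed the most depleted tier, with log2 fold changes in WT between -4.54 and -5.01. They ranked 75 (Miat), 91 (Mir124a-1hg), 92 (Meg3) and 98 (Malat1) from the lowest among 16042 genes tested. The lowest of the 10 granule cell markers was at -3.03, and the medians of oligodendrocyte, astroglia, microglia and endothelium markers were -1.87, -1.90, -1.96 and -1.82.

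Neat1 and Mirg made an intermediate tier. Neat1 was at 29.6, 24.5, 28.7 and 24.6 CPM in input WT, at 21.7, 25.5 and 12.4 CPM in input KO, at 3.61, 3.47 and 2.76 CPM in TRAP WT and at 5.03, 3.50, 2.63 and 2.77 CPM in TRAP KO. TRAP was 12.2% of input in WT and 17.5% in KO, with log2 fold changes of -3.07 ± 0.20 and -2.39 ± 0.18 (SE), so in WT it lay just below the lowest granule cell marker. Mirg was at 5.76, 5.32, 5.28 and 4.41 CPM in input WT, at 3.67, 5.24 and 3.40 CPM in input KO, at 0.884, 1.40 and 0.701 CPM in TRAP WT and at 1.01, 1.05, 0.994 and 0.616 CPM in TRAP KO, where it rested on 13 to 30 counts over the 7 TRAP libraries. TRAP was 19.2% of input in WT and 22.4% in KO, within the range of the granule cell markers.

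Snhg11 and Rian were the least depleted. Snhg11 was at 391, 382, 342 and 320 CPM in input WT, at 282, 371 and 221 CPM in input KO, at 112, 155 and 65.7 CPM in TRAP WT and at 139, 116, 107 and 103 CPM in TRAP KO. Rian was at 361, 326, 310 and 276 CPM in input WT, at 309, 348 and 298 CPM in input KO, at 103, 156 and 80.3 CPM in TRAP WT and at 144, 91.9, 91.1 and 84.6 CPM in TRAP KO. TRAP was 30.9% and 35.6% of input in WT for Snhg11 and Rian, and 40.0% and 32.3% in KO. With log2 fold changes in WT of -1.70 ± 0.23 and -1.49 ± 0.22 (SE), they ranked 2753 and 3389 from the lowest, above the median of the granule cell markers. GENCODE lists protein-coding transcripts for Snhg11 beside its noncoding ones, and the counts do not separate them.

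The cluster on chromosome 12 was thus uneven in TRAP: Meg3 was 24.9-fold lower than input in WT, Mirg 5.26-fold and Rian 2.80-fold. Of the 7 coding neighbours listed 6 were tested. In WT 3 rose in TRAP and 1 fell, where scaling by library totals in place of TMM gave 1 and 2. Begain had a log2 fold change of 1.33 and Wars one of 0.87, and Rtl1, a paternally expressed gene of the region, fell to -1.99.

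Depletion was not general to long noncoding RNAs. Of 907 RefSeq long noncoding RNAs tested, 290 rose and 330 fell in TRAP WT over input, with a median log2 fold change of -0.23, beside -0.08 for 14912 coding genes. Of 25 other well-known long noncoding RNAs tested (33 listed), 8 rose and 16 fell, with a median of -0.73 (5 and 19 under library totals). The lowest were Firre (-3.38), which organises contacts between chromosomes, Ftx (-3.28), from the X inactivation centre, and Sox2ot (-2.82). Mir9-3hg (2.87), Pvt1 (2.54) and Mir124-2hg (2.37) were the highest. Mir124-2hg hosts another copy of miR-124, so the hosts of the same microRNA family lay on opposite sides: Mir124-2hg was at 3.17 ± 0.388 CPM in input WT (n = 4) and 16.2 ± 2.54 CPM in TRAP WT (n = 3), while Mir124a-1hg was 25.0-fold lower in TRAP.

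The snoRNA hosts, the family of Snhg11, were tested for 17 of 18 listed. In TRAP WT 10 rose and 3 fell, with a median log2 fold change of 0.99, but with scaling by library totals 5 rose and 6 fell, with a median of 0.16. Snhg6 (2.72), Zfas1 (1.72) and Epb41l4aos (1.71) were the highest and Snhg17 (-1.48), Snhg18 (-1.26) and Snhg16 (-0.75) the lowest. Scaling by library totals moved the median of all genes by -0.82 in WT and -0.73 in KO and raised the share of genes called lower in WT to 61.1%. All 8 members stayed lower in TRAP under it, with a median of -4.63 in WT and -4.02 in KO.

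**Figure D2:**
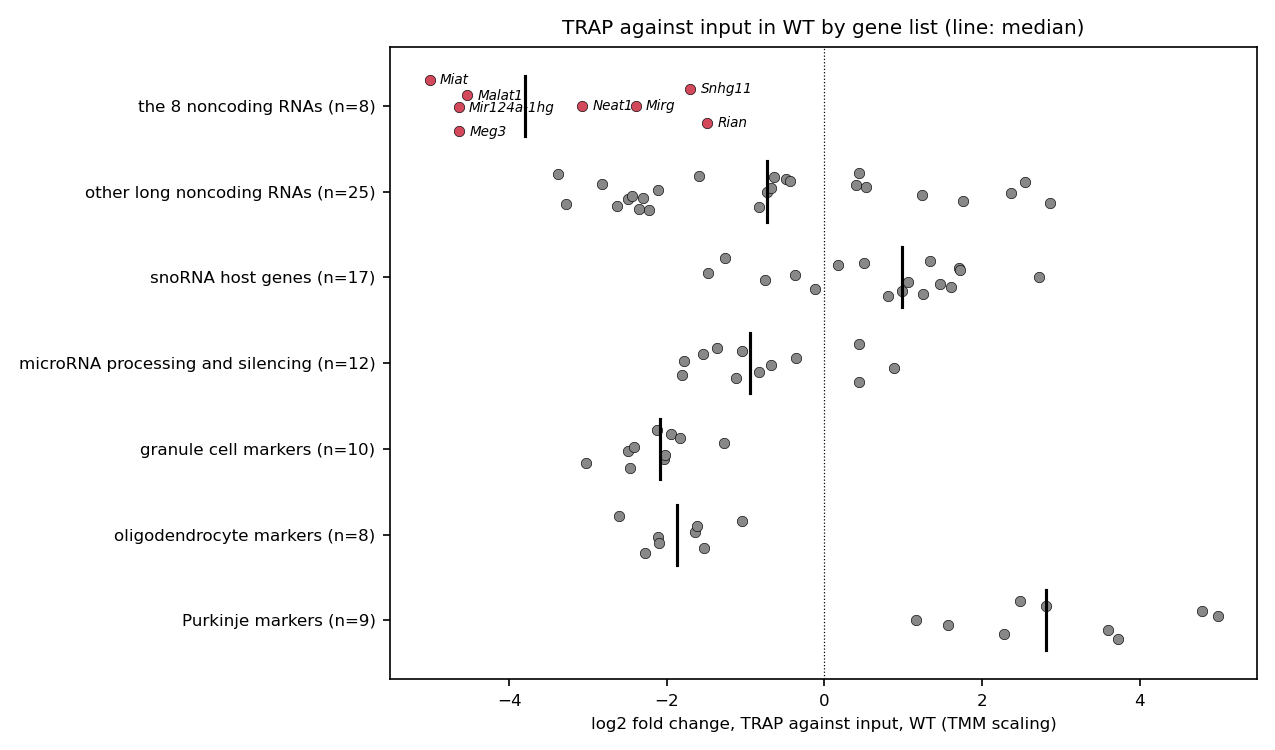
Log2 fold change, TRAP against input in WT, for genes of 7 lists (points, 1 gene each, jittered vertically; black line, list median; TMM scaling). The 8 noncoding RNAs, in red, run from -5.01 (Miat) to -1.49 (Rian), while snoRNA hosts have a median of 0.99 (0.16 under library totals) and Purkinje markers one of 2.81.

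Genes of the proteins that work with these RNAs were counted too. Of 9 paraspeckle proteins, the partners of Neat1, 1 rose and 4 fell in TRAP WT, with a median log2 fold change of -0.50 (0 and 8 under library totals). Of 12 genes of microRNA processing and silencing, 3 rose and 8 fell, with a median of -0.94; under library totals 0 rose and 11 fell. Genes whose levels over the 14 libraries followed the 8 most closely were Tmem181b-ps, Pan3, Pnn, Cnpy1 and Spop, with Pearson r between 0.993 and 0.996 to the members' mean standardised log2(CPM + 1), among 5941 genes. The libraries fall into input and TRAP, so this likeness mainly restates the gap between fractions and carries no p.

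Whether these RNAs differed with loss of Astn2 in cleared extract of whole cerebellum was tested in the 7 input libraries, with sex in the model. None of the 8 passed the threshold of 0.05 on the adjusted p from edgeR's quasi-likelihood test, as 3 of 15997 genes did (0.0188%). Of the 8, 7 had a log2 fold change below 0, with a median of -0.47, beside -0.01 over all genes. Below 0 were also 70.3% of RefSeq long noncoding RNAs and 50.9% of coding genes. The 8 moved together between the libraries of a group, so counts of them are not counts of independent results. An unadjusted edgeR p under 0.05 as lower was found for 5, where 7.5% of genes had one. The 5 were Mir124a-1hg, Neat1, Meg3, Snhg11 and Mirg. Rian (-0.11 ± 0.08), Miat (-0.11 ± 0.13) and Malat1 (0.08 ± 0.14, SE) had differences near their standard errors.

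Mir124a-1hg had the smallest p of the 8. Its mean was 364 ± 46.2 CPM in WT (n = 4) and 275 ± 51.9 CPM in KO (n = 3), a difference of -0.58 ± 0.11 on the log2 scale (SE; edgeR, adjusted p = 0.154). The highest KO library, replicate 2 at 333 CPM, lay above the lowest WT library at 309 CPM, so the groups overlapped. Neat1 had the largest difference, -0.74 ± 0.17 (SE; edgeR, adjusted p = 0.186). Input KO replicate 3 was its lowest library at 12.4 CPM, and without that library the log2 fold change was -0.33.

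Meg3 differed by -0.44 ± 0.12, Snhg11 by -0.50 ± 0.14 and Mirg by -0.50 ± 0.16 on the log2 scale (SE), and the edgeR adjusted p was 0.218, 0.218 and 0.256. Within the maternal cluster, then, Meg3 and Mirg were lower in KO by similar amounts and Rian by less, and none passed. The difference between the 3 was not tested.

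No member had every KO library below every WT library in input, which 3.66% of genes did. Without input KO replicate 2, the highest KO library for 8 of 8, there were 5 such members and 11.6% of genes. The 5 were Meg3, Neat1, Mir124a-1hg, Snhg11 and Mirg. With all libraries, in Meg3, Neat1, Mir124a-1hg, Snhg11 and Mirg the KO female libraries were below the WT female library and the KO male library below all WT male libraries, which held for 9.81% of genes (the same 5 members and 17.6% of genes without KO replicate 2); the reverse, KO above WT within both sexes, held for 0 of 8 members and 18.5% of genes. Of the males the KO arm has 1 library, and of the females the WT arm has 1.

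The call depended on the tool and on 1 library. DESeq2's Wald test passed 4 of 8 as lower in KO, where it called 1.4% of genes lower. These were Mir124a-1hg (adjusted p = 7.7e-06), Neat1 (2.52e-04), Snhg11 (0.00345) and Meg3 (0.00815). Without input KO replicate 2, the library rich in choroid plexus RNA, the same 4 passed in edgeR's test, with adjusted p between 0.0234 and 0.0438. Their log2 fold changes were -0.64 (Mir124a-1hg), -0.83 (Neat1), -0.60 (Snhg11) and -0.52 (Meg3), and 0.647% of genes were then called lower. That library was the highest of input KO for 8 of 8 RNAs, so leaving it out lowers the KO mean of each. It leaves 2 KO libraries. Without input KO replicate 3, the only male KO library and the deepest, 0 of 8 passed and 2 rather than 5 had an unadjusted p under 0.05. The range of log2 fold changes over the 7 fits that leave out a library each was -0.64 to -0.50 for Mir124a-1hg and -1.11 to -0.33 for Neat1.

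The wider class of noncoding RNAs was below 0 more often in input, but the list of well-known ones was not. Of 891 RefSeq long noncoding RNAs tested, 626 were below 0 in KO (70.3%), with a median log2 fold change of -0.12, against 50.9% of 14880 coding genes and a median of -0.00331. Without input KO replicate 2 the shares were 68.5% and 49.6%. Of the 25 other well-known long noncoding RNAs 11 were below 0 and 14 above, with a median of 0.04 (10 and 15 without that library). Of 17 snoRNA hosts 16 were below 0, with a median of -0.19, and 0 passed; without that library 16 were below 0, with a median of -0.27, and 1 passed. Firre, the lowest of the well-known RNAs in TRAP, differed by -0.67 ± 0.13 on the log2 scale (SE; edgeR, adjusted p = 0.154). Of the cell type markers, endothelium leaned with them: 8 of 8 were below 0, with a median of -0.60 (-0.63 without that library), and their summed level was between 23.4 and 34.1 CPM in input WT and between 15.7 and 24.2 CPM in input KO, with no marker at 0. Choroid plexus markers were below 0 in 1 of 6 with all libraries, with a median of 0.14. Without input KO replicate 2 they were below 0 in 5 of 6, with a median of -2.74. Their summed level was 28.0, 412, 288 and 17.1 CPM in input WT replicates 1 to 4. The part of endothelium or choroid plexus in the result was not tested. Granule cell markers had a median of 0.01 and summed to between 5784 and 6036 CPM over all input libraries.

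**Figure D3:**
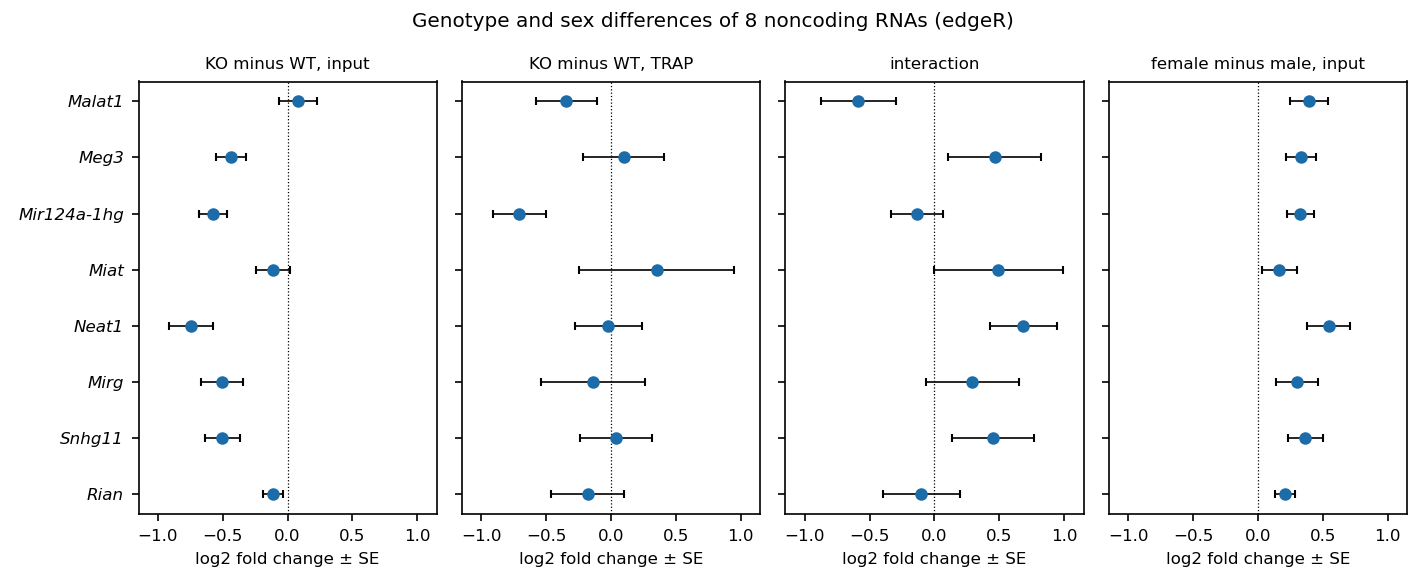
Log2 fold change with its standard error for each RNA in 4 contrasts of edgeR's fit: KO against WT in input, KO against WT in TRAP, the genotype by fraction interaction, and female against male in input. In input 7 of 8 RNAs lie below 0 for KO and 8 of 8 above 0 for females; none of these differences passed an adjusted p of 0.05.

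The libraries of a group moved together. In input WT, replicate 1 was the highest of 4 for 8 of 8 RNAs and replicate 4 the lowest for 7 of 8. In input KO, replicate 2 was highest for 8 of 8 and replicate 3 lowest for 7 of 8. The summed level of the 8 was 3650, 3426, 3028 and 2778 CPM in input WT replicates 1 to 4 and 2737, 3571 and 2385 CPM in input KO. Summed oligodendrocyte markers ran in the opposite order in input WT, at 5324, 5990, 6738 and 7237 CPM. They were lowest in input KO replicate 2, at 4908 CPM. Astroglia markers also rose over input WT replicates 1 to 4, from 1370 to 1887 CPM. So did microglia (23.4 to 41.4 CPM) and Purkinje markers (5358 to 5835 CPM) and the paraspeckle genes (1005 to 1303 CPM). Granule cell, endothelium and choroid plexus markers did not. In input KO replicate 2 astroglia markers (1582 CPM) and paraspeckle genes (1041 CPM) were also lowest. Purkinje markers were not, and microglia markers were highest there, at 31.2 CPM. The part of these lists in the result was not tested.

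Replicate 1 is the only female of input WT, and input KO replicate 3 the only male of its group, so sex was looked at after these values were seen. With genotype in the model, all 8 RNAs were higher in female input, with a median log2 fold change of 0.33. None passed in edgeR's test, where 6 genes did (0.0375%), and 6 of 8 had an unadjusted p under 0.05 as higher, where 4.61% of genes did. Neat1 had the largest difference, 0.55 ± 0.17 (SE), and the smallest edgeR adjusted p of the 8 was 0.505. Without input KO replicate 2 all 8 were still above 0, with a median of 0.24, 6 had an unadjusted p under 0.05 and 0 passed.

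In 7 of 8, all but Miat, every female library was above every male library of its genotype, which held for 11.6% of genes (the same 7 and 14.4% of genes without KO replicate 2). Without input KO replicate 3, 0 of 8 had an unadjusted p under 0.05 for sex. Of 891 long noncoding RNAs, 681 were above 0 in females (76.4%), with a median of 0.16, against 50.0% of 14880 coding genes; without input KO replicate 2 the shares were 71.3% and 46.8%. Choroid plexus markers were above 0 in 6 of 6, but below 0 in 5 of 6 without that library. Oligodendrocyte markers were below 0 in 8 of 8 with and without it, with medians of -0.26 and -0.22. With and without that library, astroglia and microglia markers were each below 0 in 7 of 8 and Purkinje markers in 7 of 9. Granule cell markers were below 0 in 5 of 10 in both cases, and endothelium markers in 1 of 8 (2 of 8 without that library). The part of these markers was not tested.

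**Figure D4:**
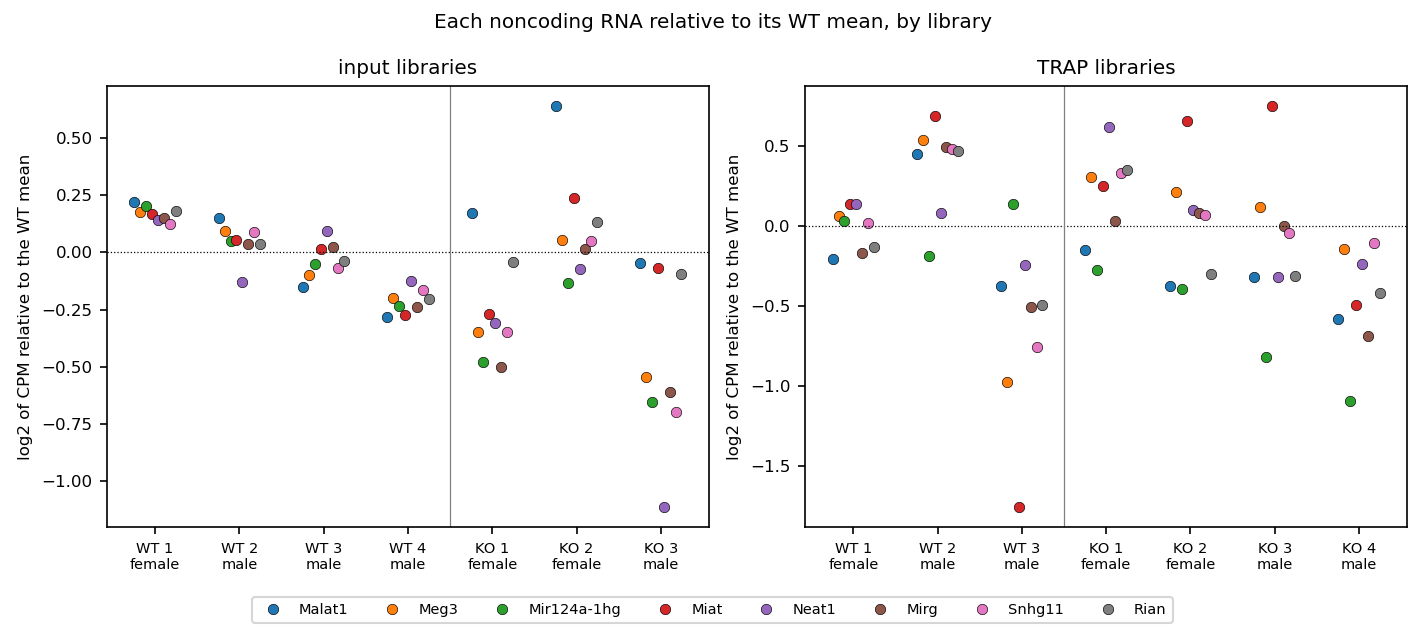
Log2 of each RNA's CPM relative to its mean over the WT libraries of the same fraction, for each input library (left) and TRAP library (right), labelled by genotype, replicate and sex. In input the 8 RNAs of a library sit closest together in WT, where each is highest in replicate 1. Within input KO each is highest in replicate 2, and the RNAs of a library spread more. In KO replicate 3 Neat1 is lowest (12.4 CPM against a WT mean of 26.8) and Malat1 nearest its WT mean (483 against 498). In TRAP they spread more than in input WT, and Mir124a-1hg is below its WT mean in all 4 KO libraries.

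In ribosome-bound RNA, genotype was tested over 14145 genes in the 7 TRAP libraries, and 1 gene passed, Astn2 (0.00707%). None of the 8 did. The median log2 fold change was -0.08. Mir124a-1hg had the lowest value, at 14.7 ± 1.64 CPM in TRAP WT (n = 3) and 9.60 ± 2.43 CPM in TRAP KO (n = 4), with a log2 fold change of -0.71 ± 0.20 (SE). By edgeR the unadjusted p was 0.00771 and the adjusted p 1.00. It was the only 1 of 8 with every KO library below every WT library, which 2.62% of genes showed.

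The other 7 had log2 fold changes in TRAP between -0.34 (Malat1) and 0.35 (Miat), each with a standard error of 0.24 to 0.60. TRAP WT replicate 3 was lowest of its group for 7 of 8 RNAs and TRAP KO replicate 4 lowest of its group for 7 of 8. These libraries were also lowest in summed granule cell markers, at 1017 CPM against 1409 and 1617 CPM in the other TRAP WT libraries and at 920 CPM against 1313 to 1679 CPM in the other TRAP KO libraries. TRAP WT replicate 3 and TRAP KO replicate 4 were also lowest of their groups in oligodendrocyte markers (964 and 938 CPM). The same held for astroglia (345 and 322 CPM) and microglia markers (7.42 and 5.15 CPM). Endothelium markers were lowest in TRAP KO replicate 4 but not in TRAP WT replicate 3. In Purkinje markers both libraries were highest of their groups, at 77401 and 70760 CPM. The part of other cells' RNA in the TRAP levels was not tested. Female and male TRAP libraries were separate within each genotype in 1 of 8 RNAs, Neat1, against 2.69% of genes.

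Whether depletion in TRAP differed between genotypes was asked by the interaction over 16042 genes. No gene passed in edgeR's test (0.0% of genes), 430 had an unadjusted p under 0.05 (2.68%), and DESeq2's Wald test called 1 gene, none of the 8. Neat1 had a difference of 0.69 ± 0.26 (SE; edgeR, unadjusted p = 0.0191, adjusted p = 0.999): its TRAP level was a larger part of input in KO. Malat1 leaned the other way, by -0.59 ± 0.29 (SE). The remaining 6 lay between -0.13 (Mir124a-1hg) and 0.49 (Miat). For Mir124a-1hg, the log2 fold changes of KO against WT were -0.58 in input and -0.71 in TRAP, and their difference of -0.13 ± 0.20 (SE) was within its error.

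The reading of several genes is limited by overlap. On the opposite strand GENCODE lists Gm37376 overlapping the span of Malat1 and Gm26906 that of Meg3. Gm26953 overlaps that of Miat, and Gm24321, a microRNA, that of Mirg. Whether counting used strand is not given in the sources used here, so reads of these pairs cannot be told apart. On its own strand Rian overlaps 13 snoRNAs and 4 microRNAs. It also overlaps Gm26945, a long noncoding RNA, and Gm27350, of GENCODE's class misc_RNA, on that strand.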

How the data were processed

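Raw counts per gene for 14 libraries were deposited by the authors, with Entrez numbers as row names; the submitters' processing notes name Salmon 0.8.2 and mm10, with no role given, and the annotation and strand setting are not given in the sources used here. Symbols came from RefSeq (24045 of 24100 genes matched), lengths and spans from GENCODE. Groups, sex and replicate numbers came from the labels, which do not name animals, so p-values measure the spread between these libraries. Replicates differed by more than sampling noise (chi-square per degree of freedom 8.63 to 267). Genotype was tested in the 7 libraries of a fraction and the interaction in all 14, with sex, by edgeR 4.0.16 (R 4.3.3; quasi-likelihood, filterByExpr, TMM, two-sided, Benjamini-Hochberg adjustment over all genes, threshold 0.05); DESeq2 1.42.0 was an alternative. The scripts were tested on simulated data. Members, lists and the naming rule (the members, extremes of each noncoding list, and the 5 genes most like them with mean log2(CPM + 1) of at least 5) were chosen with earlier results of these data known; Firre in input and some values of other lists were named after they were seen. The comparisons by sex, and the list counts and library orders in input without KO replicate 2, were added after seeing the data. The floor of a library was 3 counts, for counting error only, between 0.0553 and 0.160 CPM. Same-numbered input and TRAP libraries of a genotype shared sex and correlated in their deviations between -0.04 and 0.23, not all over 0.1. Whether the numbers pair samples cannot be told from this, and the main fits used no pairing. Mitochondrially encoded mRNAs were not analysed here. Figures used matplotlib 3.10.9.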

Additional observations from a re-analysis of the deposited data

Results flagged for a closer look

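Of 18 values tested, 2 had 1 library far from the other 3, both in TRAP KO. Chance alone gives about 1 in 20 for independent values, and these RNAs moved together between libraries. On the log2(CPM + 1) scale Rian was at 7.18 in replicate 1, while the other 3 libraries lay between 6.42 and 6.54, so the gap took 0.846 of the group's range, more than Dixon's test allows for 4 samples. Mirg was at 0.69 in replicate 4, on 14 counts, while the other 3 lay between 1.00 and 1.04, and the gap took 0.882 of the range.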

How the results depend on the processing

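The log2 fold changes of all 8 RNAs in TRAP against input kept their sign under every alternative run. The medians moved to -4.63 in WT and -4.02 in KO with library totals in place of TMM, and with a library left out they ran between -3.97 and -3.66 in WT, and between -3.41 and -3.14 in KO. Without Malat1, the share of counts in input WT was 0.358%.

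In input, genes called for genotype numbered 5 with DESeq2 size factors, 23 with no filter on low counts, 294 with DESeq2's Wald test and from 1 to 158 with a library left out; members called numbered 4 with DESeq2 and from 0 to 4 with a library left out. The cause of the gap between tools was not tested. Malat1 ranged from -0.020 to 0.20 with a library left out. For sex in input, DESeq2 called 28 genes and 0 of 8 members.

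In TRAP, 3 genes were called by DESeq2, 2 with all 14 libraries in one fit and from 1 to 2 with a library left out. Signs of the small differences in TRAP were unstable. Neat1 was at 0.029 with library totals and 0.10 with no sex term. With a library left out, Meg3 ranged from -0.19 to 0.56, Neat1 from -0.18 to 0.11, Snhg11 from -0.20 to 0.43, Rian from -0.41 to 0.16, Mirg from -0.36 to 0.20 and Miat from -0.088 to 1.01 for genotype. For sex, Malat1 ranged from -0.12 to 0.17, Rian from -0.070 to 0.41, Mirg from -0.083 to 0.35 and Miat from -0.040 to 0.62. For the interaction DESeq2 called 1 gene, and Mir124a-1hg ranged from -0.24 to 0.039, Rian from -0.30 to 0.33 and Miat from -0.028 to 1.19.

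The labels do not say whether the replicate number pairs samples. In WT all 3 input libraries, and in KO 2 of 3, correlated best with the TRAP library of their own number. With the replicate block, 1 gene in input, 1 in TRAP and 0 in the interaction were called, with 0 of 8 members in each. Under the block the TRAP genotype differences of Neat1 and Mirg were 0.14 and 0.074, the interaction values of Mir124a-1hg and Rian 0.0060 and 0.038, and the TRAP against input medians -3.86 in WT and -3.26 in KO. Depth limited Miat and Mirg in TRAP, where single libraries held as few as 4 and 13 counts.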
